A study of Mus musculus with 11 samples.

Results

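The genes described here are 10 genes of alveolar and general lung macrophages: Siglecf, Ear1, Ear2, Chil3, Itgax, Marco, Mrc1, Cd68, Csf1r and Cd163l1. They were looked up among 14351 mouse genes with a probe set in an array study of lung. Of the 10 genes, 9 had a probe set whose RefSeq accession the gene table names, and each of these had exactly 1, while Cd68 was not matched to a probe set and has no value here. The study compared Balb/c mice that lack both Eif4ebp1 and Eif4ebp2 (4ebp1-/-/4ebp2-/-) with wild-type (WT) mice of the same strain. The 2 deleted genes encode 4E-BP1 and 4E-BP2, small proteins that hold the cap-binding factor eIF4E and so restrain the start of translation. Lung RNA was measured as total RNA (3 WT and 3 knockout arrays) and as polysomal RNA (2 WT and 3 knockout arrays), the RNA from gradient fractions 7 to 10, where a transcript carries 3 or more ribosomes.

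All the mice received the purified diet AIN-93M from 5 weeks of age, and neither the age at collection nor the sex is in the labels used here. The WT mice were bought from a commercial breeder and the knockouts came from another laboratory, so genotype and colony cannot be told apart. The deletion was in the whole animal, not in macrophages alone, and the samples were lung tissue of mixed cells, so a lower value of a macrophage gene does not tell fewer macrophages from less RNA per macrophage. The labels do not tell whether the arrays are from separate mice, and p-values rest on array-to-array spread alone, part of which may be technical.

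Alveolar macrophages live on the air side of the alveoli, where they clear surfactant and inhaled particles. They arise from fetal monocytes, and they depend on the growth factor GM-CSF, whose signal induces the nuclear receptor PPARγ, together with the myeloid transcription factor PU.1. In the mouse they are recognised by the surface pair Siglec-F and CD11c, and they are rich in the secreted lectin Ym1. Some of these genes are shared with other cells: Siglecf and the Ear ribonucleases with eosinophils, Itgax with dendritic cells, Mrc1 with interstitial macrophages and lymphatic endothelium, and Cd163l1 with γδ T cells.

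The deleted genes were read first. Eif4ebp2 stood at 4.50 to 5.49 log2 in WT and 2.61 to 3.26 in knockout total RNA, and at 5.76 to 6.09 and 3.75 to 3.92 on polysomes. Eif4ebp1 stood at 8.20 to 8.54 in WT and 7.92 to 7.94 in knockout total RNA, and at 7.78 to 7.93 and 7.05 to 7.36 on polysomes. For both, all knockout values lay under all WT values of the same RNA kind, and Eif4ebp1 kept signal in the knockouts. Whether its probes lie inside the deleted stretch is not given.

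Values are log2 expression values, 1 per probe set and array, with array medians between 4.96 and 5.04. A probe set was tested where it reached 5 on at least 2 of the 11 arrays, which kept 8 of the 9 members and 8085 genes in all. Every adjusted p is from limma, fitted across all arrays, with Benjamini-Hochberg adjustment over 13802 probe sets and a threshold of 0.05. Levels of different probe sets are not comparable, and the results are differences within a gene. Averages over the probe sets of a marker list serve only to set arrays beside each other.

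In total lung RNA of knockout mice, 4 of the macrophage genes were lower and 1 was higher. Siglecf, Ear1, Ear2 and Chil3 fell by 0.57 to 0.72 log2 units, a reduction of 1.49-fold to 1.65-fold, while Itgax rose 1.45-fold. Of all genes tested, 5.97% fell and 17.2% rose in this comparison. After quantile normalization these shares were 9.66% and 14.8%, with the same number of members called in each direction. The median difference of the 8 tested members was -0.57, against 0.09 for all genes. The members were chosen with earlier results of these data known. Their counts and medians beside those of all genes are therefore a description and no independent support, here and below.

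In polysomal RNA Chil3, Ear1, Itgax and Csf1r fell and no member rose, at a background of 6.77% of genes lower and 8.36% higher (15.1% in either direction). These are 4 of 7 tested members, leaving out Cd163l1, which passed the filter on low values only through WT arrays and whose lower value the filter therefore favoured. The median difference of the 7 was -0.39, and -0.49 with Cd163l1, against -0.01 for all genes. Chil3 and Ear1 were the members that fell in both kinds of RNA, as did 0.878% of all genes.

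**Figure D1:**
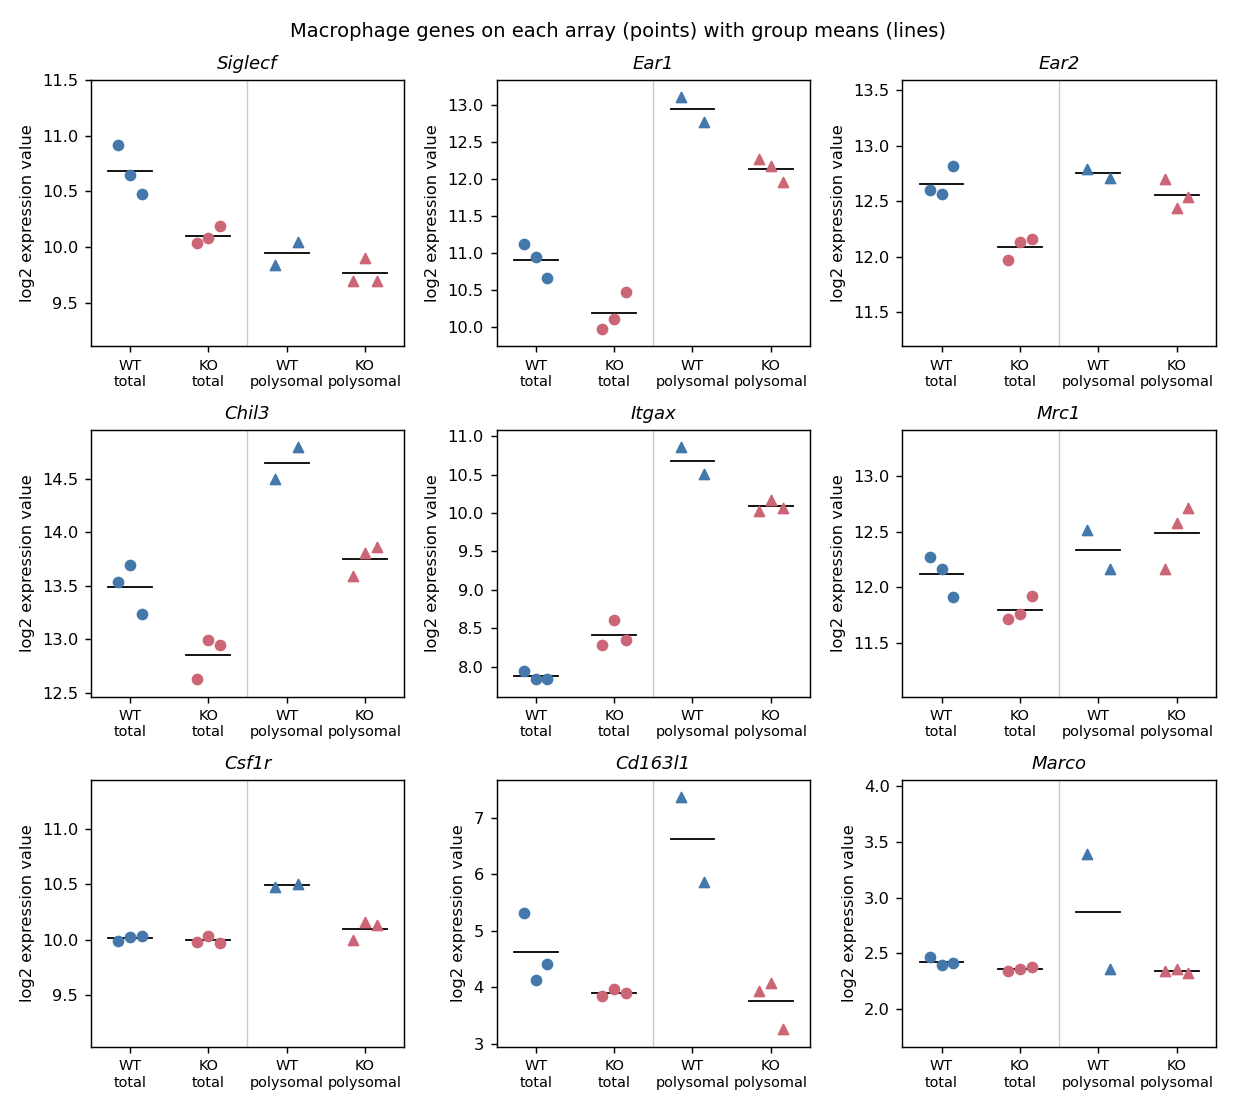
Log2 expression value of each of the 9 macrophage genes with a probe set (vertical axes, a separate range for each gene) on each array, by genotype and RNA kind (circles, total; triangles, polysomal; blue, wild type; red, knockout; lines, group means; n = 3, 3, 2 and 3). Of the tested genes, Siglecf, Ear1, Ear2, Chil3, Itgax and Cd163l1 have no overlap of the genotypes in total RNA, Cd163l1 without passing the test. Itgax changes sides between total and polysomal RNA, and Marco is at most 3.39 on every array.

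The secreted members were the ribonucleases Ear1 and Ear2 and the lectin Chil3. Chil3 encodes Ym1, a chitinase-like protein without chitinase activity that macrophages release and that can crystallise in diseased lung. In total RNA Chil3 stood at 13.53, 13.69 and 13.24 log2 on the WT arrays and at 12.63, 12.997 and 12.95 on the knockout arrays. In polysomal RNA it stood at 14.49 and 14.79 in WT and at 13.59, 13.80 and 13.86 in knockout. In both kinds of RNA every knockout array lay below every WT array.

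In total RNA the fall of Chil3 was 1.55-fold (log2 difference -0.63, SE 0.15, n = 3 and 3, limma adjusted p = 0.017). The polysomal RNA fell by 0.89 (SE 0.17, n = 2 WT and 3 knockout, limma adjusted p = 0.0095). In polysomal RNA this is a 1.85-fold lower signal. Labelling started from 100 ng of RNA on every array, so the signal reflects a share of the polysomal RNA and not an amount. The labels also give each array an unexplained replicate set letter, and within letters the total RNA difference was -0.98 in set A and -0.26 in set B. In polysomal RNA it was -0.69 in set B and -0.93 in set C. The total RNA call was lost without WT replicate 1 (-0.60), WT replicate 2 (-0.53) or knockout replicate 1 (-0.51), and the polysomal call without WT replicate 2 (-0.74). Both calls were also lost with the set letter added to the fit. The sign held in every one of these fits.

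Ear1 and Ear2 belong to the eosinophil-associated ribonucleases, a mouse branch of the RNase A superfamily that has multiplied into many near copies. They lie on chromosome 14 of GRCm38, Ear1 at 43818765 to 43819639 and Ear2 at 44102654 to 44103531. Probes of near copies can share target, so the values of Ear1 and Ear2 may each hold signal of the other or of further Ear genes. Their upstream sequences show how close the pair is. The 250 bases before the start site of each gene are printed 5′ to 3′ on the gene's strand (RefSeq, GRCm38.p6), with capitals marking the letters of a C/EBP motif (TTGCNNAA, either strand).
Ear1: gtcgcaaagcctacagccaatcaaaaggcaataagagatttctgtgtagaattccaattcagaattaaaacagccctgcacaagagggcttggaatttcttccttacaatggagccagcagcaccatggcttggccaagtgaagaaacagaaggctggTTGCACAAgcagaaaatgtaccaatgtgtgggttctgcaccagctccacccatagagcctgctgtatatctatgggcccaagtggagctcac
Ear2: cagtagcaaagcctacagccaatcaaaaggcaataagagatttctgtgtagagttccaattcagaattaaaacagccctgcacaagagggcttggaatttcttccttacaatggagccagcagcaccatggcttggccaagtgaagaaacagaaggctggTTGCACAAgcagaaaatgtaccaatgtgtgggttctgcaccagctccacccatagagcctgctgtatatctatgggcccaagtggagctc
The Ear1 window is chr14:43819640-43819889 (minus strand) and the Ear2 window chr14:44102404-44102653 (plus strand). Aligned to each other they shared 246 of 248 bases, or 99.19%, and Ear1 shared 93.93% with Ear10 and 92.58% with Ear6, neither of which was matched to a probe set. The C/EBP letters begin 92 bases before the start of Ear1 and 90 before that of Ear2. Windows with these letters made up 9.564% of 32851 such windows of all genes, and a match is no evidence of binding.

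Ear1 stood at 11.12, 10.94 and 10.67 log2 on the WT total arrays and at 9.98, 10.12 and 10.48 on the knockout total arrays. On polysomes it stood at 13.10 and 12.77 in WT and at 12.26, 12.18 and 11.96 in knockout. Neither pair of groups overlapped. In total RNA Ear1 fell by 0.72 (SE 0.17, limma adjusted p = 0.014). On polysomes it fell by 0.80 (SE 0.19, limma adjusted p = 0.021). Within set letters the total RNA difference was -1.06 in set A and -0.37 in set B, and the polysomal difference -0.92 in set B and -0.81 in set C.

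The total RNA call for Ear1 was lost without WT replicate 1 (-0.62), knockout replicate 1 (-0.61) or knockout replicate 2 (-0.68). Its polysomal call was lost without WT replicate 1 (-0.63) or knockout replicate 3 (-0.71), and with the set letter added to the fit. Each of these fits kept the fall.

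Ear2 fell in total RNA. Its values were 12.60, 12.56 and 12.81 log2 on the WT total arrays and 11.97, 12.13 and 12.16 on the knockout total arrays, without overlap. The fall was 0.57 (SE 0.10, limma adjusted p = 0.0055), -0.61 within set A and -0.67 within set B, and was called in every alternative and with every array left out. In polysomal RNA Ear2 stood at 12.79 and 12.71 in WT and at 12.70, 12.44 and 12.54 in knockout. These groups did not overlap either, yet the difference of -0.19 did not pass (SE 0.12, limma adjusted p = 0.32).

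Among the surface proteins, Siglecf encodes an inhibitory receptor that binds sialic acid and marks alveolar macrophages and eosinophils. On the WT total arrays it stood at 10.92, 10.65 and 10.48 log2, and on the knockout total arrays at 10.03, 10.08 and 10.19. All 3 knockout arrays were below all 3 WT arrays. The fall was 0.58 (SE 0.12, limma adjusted p = 0.011), a reduction of 1.49-fold, and was -0.75 within set A and -0.34 within set B. It was called in every alternative and with every array left out, the weakest of these at an adjusted p of 0.0497.

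On polysomes Siglecf stood at 9.84 and 10.04 log2 in WT and at 9.69, 9.90 and 9.70 in knockout. These groups overlapped, and the difference of -0.18 did not pass (SE 0.14, limma adjusted p = 0.44). The polysomal difference was 0.40 above the total RNA difference, a gap that did not pass either (SE 0.19, limma adjusted p = 0.15), so the fall is not shown to differ between the kinds of RNA.

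Upstream of Siglecf, on chromosome 7, the window of 250 bases holds 1 copy of a PU.1 motif (GAGGAAG), beginning 66 bases before the start. It lies on the minus strand, so that it reads as its reverse complement here. It is shown because PU.1 is the factor that macrophage genes are best known to share, and capitals mark the motif.
Siglecf: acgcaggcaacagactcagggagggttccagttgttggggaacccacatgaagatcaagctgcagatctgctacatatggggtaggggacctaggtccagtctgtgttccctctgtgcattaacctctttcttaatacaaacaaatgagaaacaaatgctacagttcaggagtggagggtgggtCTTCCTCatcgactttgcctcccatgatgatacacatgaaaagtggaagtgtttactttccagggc
This window is chr7:43351091-43351340 (plus strand). Of the 9 members with a window in the RefSeq table, Siglecf, Marco and Mrc1 held the letters, against 10.612% of all windows. An AP-1 motif (TGANTCA) was held by Itgax and Cd68, against 6.749% of windows, and the C/EBP letters by Ear1, Ear2 and Cd68. A PPARγ and RXR motif (2 direct AGGTCA repeats with 1 free base between) was found in none of the 9 and in 0.033% of all windows. The Chil3 window held no letters of the 4 motifs. These counts describe letters in a short window only.

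Itgax encodes CD11c, the αX chain of an integrin that alveolar macrophages share with dendritic cells. It was the member called in opposite directions in the 2 kinds of RNA. On the WT total arrays Itgax stood at 7.94, 7.84 and 7.84 log2, and on the knockout total arrays at 8.28, 8.61 and 8.35. On polysomes it stood at 10.85 and 10.51 in WT and at 10.03, 10.17 and 10.07 in knockout. The knockout arrays were thus all above WT in total RNA and all below WT on polysomes.

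In total RNA Itgax rose by 0.54 (SE 0.12, limma adjusted p = 0.011), a call kept in every alternative and with every array left out. On polysomes it fell by 0.59 (SE 0.13, limma adjusted p = 0.017). The difference between these differences was -1.13 (SE 0.18, limma adjusted p = 0.0048), likewise called in every fit. Within set letters Itgax was at 0.39 (set A) and 0.64 (set B) in total RNA and at -0.69 (set B) and -0.44 (set C) in polysomal RNA. The polysomal call was lost when the 5 polysomal arrays were fitted alone (limma adjusted p = 0.060) and without WT replicate 1 (-0.42). It was also lost with the set letter added to the fit.

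The uptake receptors gave no common picture. Mrc1 encodes the mannose receptor CD206, which takes up glycoproteins with mannose ends. In total RNA Mrc1 stood at 12.27, 12.16 and 11.91 log2 in WT and at 11.72, 11.75 and 11.92 in knockout, and in polysomal RNA at 12.51 and 12.16 against 12.16, 12.58 and 12.71. The groups overlapped in both, and neither the total RNA difference of -0.32 (SE 0.16, limma adjusted p = 0.19) nor the polysomal one of 0.15 (SE 0.18, limma adjusted p = 0.64) passed.

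Cd163l1, also named Scart1, encodes a scavenger receptor with cysteine-rich domains. On the WT polysomal arrays it stood at 7.36 and 5.87 log2, against 3.93, 4.08 and 3.26 on the knockout polysomal arrays. The WT total arrays gave 5.33, 4.13 and 4.41 and the knockout total arrays 3.84, 3.98 and 3.91. Only WT arrays reached 5, so Cd163l1 was tested solely because it was high in WT, and its difference adds nothing to the count of members that fell.

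The polysomal means of Cd163l1 were 6.62 in WT and 3.76 in knockout, a difference of -2.86, which was -3.28 within set B and -2.62 within set C. The knockout values lie under the filter level of 5 and are not shown to be above background, so no fold or p is given. The difference was -2.12 without WT replicate 1 and -3.61 without WT replicate 2. In total RNA the difference of -0.71 did not pass (SE 0.40, limma adjusted p = 0.23), though the groups did not overlap. Probe sets under the filter had a median of 2.30 to 2.49 on the 11 arrays, and the lowest knockout value of Cd163l1, 3.26, came nearest to it.

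Marco encodes a collagenous scavenger receptor that binds bacteria and particles and is a classic product of alveolar macrophages. Its probe set stood at 2.34 to 2.46 log2 on the 6 total arrays and at 2.33 to 2.36 on 4 polysomal arrays, near the median of the untested probe sets. The WT polysomal replicate 1 gave 3.39. Marco was not tested, and these values do not show whether its message was present.

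Csf1r encodes the receptor for the growth factors CSF1 and IL-34, on which most tissue macrophages depend. In total RNA Csf1r stood at 9.99, 10.02 and 10.03 log2 in WT and at 9.98, 10.03 and 9.97 in knockout, a difference of -0.02 (SE 0.08, limma adjusted p = 0.87). On polysomes it stood at 10.47 and 10.50 in WT and at 10.00, 10.16 and 10.13 in knockout. The polysomal groups did not overlap while the total groups did. On polysomes Csf1r fell by 0.39 (SE 0.08, limma adjusted p = 0.015), or 1.31-fold, -0.31 within set B and -0.37 within set C. This call was lost with the polysomal arrays fitted alone (limma adjusted p = 0.071) and without WT replicate 1 (-0.41) or WT replicate 2 (-0.38). It was also lost with the set letter added to the fit.

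**Figure D2:**
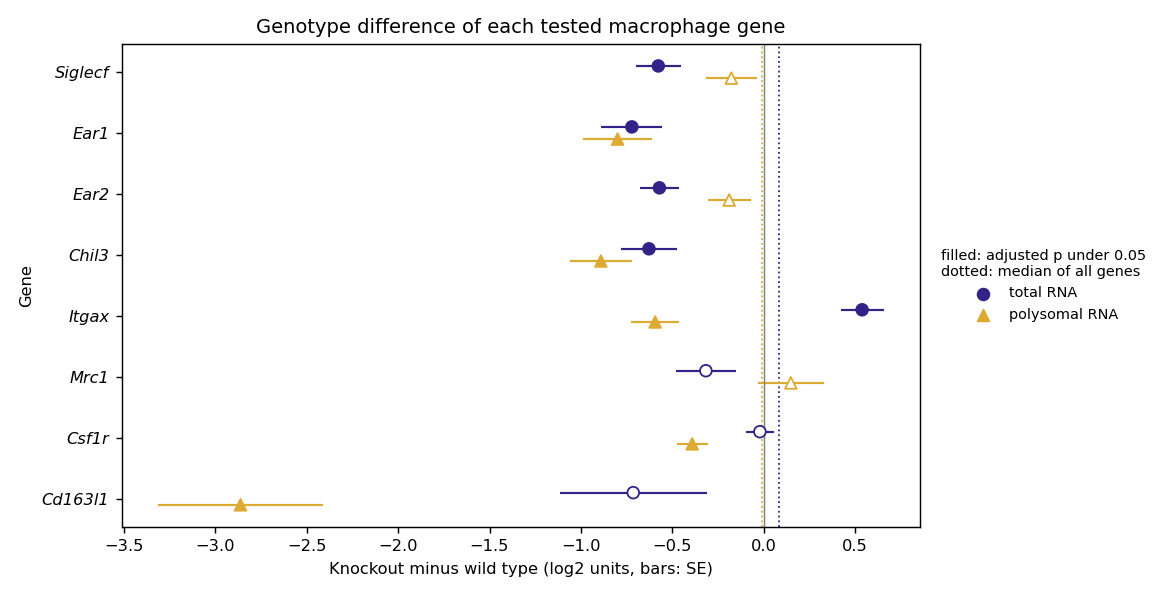
Knockout minus wild-type difference in log2 units (horizontal axis; bars, SE of the limma fit) of each of the 8 tested macrophage genes in total RNA (circles, n = 3 and 3) and polysomal RNA (triangles, n = 2 and 3); filled symbols had an adjusted p under 0.05 and dotted lines are the medians of all genes. Ear1 and Chil3 lie below 0 in both, Itgax lies at 0.54 and -0.59, and Cd163l1, tested only through its WT arrays, lies at -2.86 in polysomal RNA.

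Whether a genotype difference itself differed between polysomal and total RNA was tested as the interaction of both factors. Leaving out Cd163l1, it passed for 2 of 7 members, Itgax (-1.13) and Csf1r (-0.37, SE 0.11, limma adjusted p = 0.044), both with the polysomal difference below the total one. Of all genes 22.3% passed, 14.2% lower and 8.06% higher in this sense. For Cd163l1 the value was -2.15, which the filter favoured, and its call was lost with any of 8 arrays left out and without a filter on low values. The Csf1r call was lost with any of 10 arrays left out, with either other scaling of the arrays (-0.29 and -0.34), and with the set letter added to the fit. The Itgax call was lost with no array left out. For Ear1 (-0.08, SE 0.25, limma adjusted p = 0.85) and Chil3 (-0.26, SE 0.23, limma adjusted p = 0.45) the interaction did not pass. A p above the threshold does not show that their falls were alike in both kinds of RNA.

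The difference between polysomal and total RNA varied widely among the members in both genotypes. In WT lung Itgax was 2.81 log2 units higher in polysomal than in total RNA (SE 0.13, limma adjusted p = 1.0e-07), Ear1 2.02 (SE 0.19), Cd163l1 2.0 (SE 0.45), Chil3 1.16 (SE 0.17) and Csf1r 0.47 (SE 0.08). Siglecf was 0.74 lower on polysomes (-0.74, SE 0.14, limma adjusted p = 8.1e-04). Ear2 (0.09, SE 0.12) and Mrc1 (0.22, SE 0.18) did not pass. Of the 7 members without Cd163l1, 4 were higher and 1 lower, against 44.5% and 27.9% of all genes (72.4% in either direction), a background at which such counts are common.

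The median of all genes was 0.22 in this WT comparison and 0.06 after quantile normalization. Measured from the 0.22, Itgax was at 2.59, Ear1 at 1.80, Chil3 at 0.93, Csf1r at 0.25 and Siglecf at -0.96. Quantile normalization turned the sign of Ear2 (-0.36, limma adjusted p = 0.031) and of Mrc1 (-0.20), so no direction is given for these in WT.

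In knockout lung Ear1 was 1.94 higher on polysomes (SE 0.17), Itgax 1.68 (SE 0.12), Chil3 0.89 (SE 0.15), Mrc1 0.69 (SE 0.16) and Ear2 0.47 (SE 0.10), and Siglecf was at -0.34 (SE 0.12, limma adjusted p = 0.036). Csf1r (0.10, SE 0.08) and Cd163l1 (-0.15, SE 0.40) did not pass, nor did Mrc1 (0.35) and Ear2 (0.12) after quantile normalization. The Siglecf call was lost with equal array medians (-0.28), without a filter, and with any of 5 arrays left out. Of all genes 65.2% passed, 39.5% higher and 25.7% lower, with a median of 0.13.

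Over the 8085 genes the median size of the polysomal minus total difference, regardless of sign, was 0.87 in WT and 0.63 in knockout. On the deposited values Itgax, Csf1r, Chil3, Siglecf, Cd163l1 and, by little, Ear1 also had smaller differences in knockout, and Ear2 and Mrc1 had larger ones. How far any member exceeds that general change was not tested. Ear1 lay near 2 in both genotypes. Ear2 lay at 0.09 in WT and 0.47 in knockout, and at -0.36 and 0.12 after quantile normalization.

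**Figure D3:**
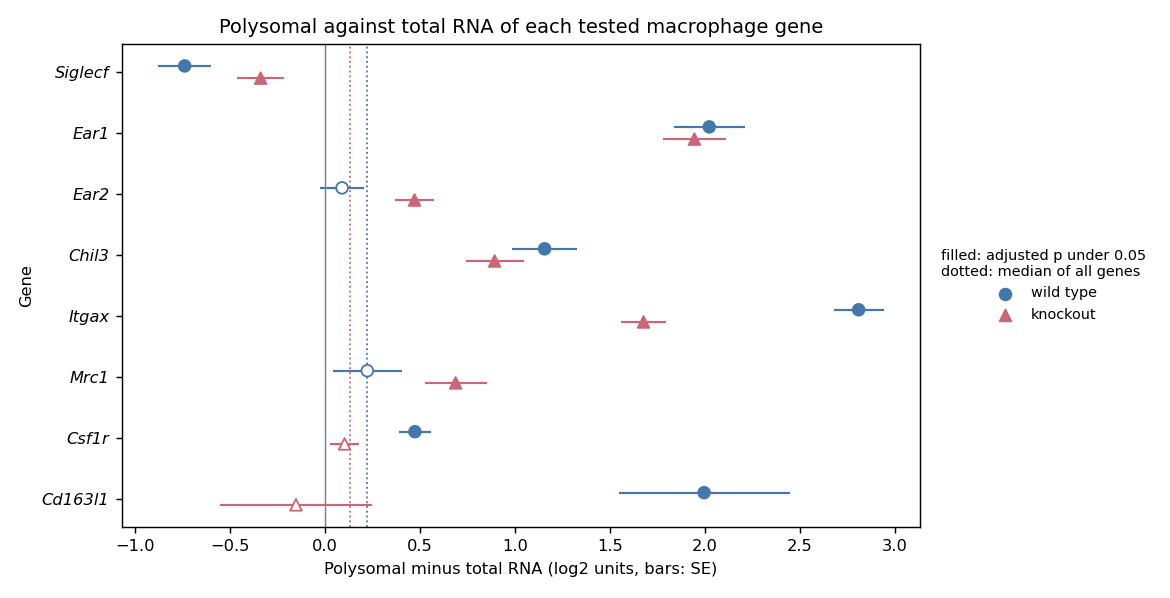
Polysomal minus total RNA in log2 units (horizontal axis; bars, SE of the limma fit) of each of the 8 tested macrophage genes in wild type (circles, n = 2 and 3) and knockout (triangles, n = 3 and 3); filled symbols had an adjusted p under 0.05 and dotted lines are the medians of all genes, 0.22 and 0.13. Itgax goes from 2.81 to 1.68 and Ear1 stays near 2, while Siglecf lies below 0 in both.

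Of 24 further alveolar macrophage genes 20 were tested. In total RNA 5 rose, none fell and 15 did not pass (median 0.07), beside 17.2% of all genes that rose and 5.97% that fell, a background that leaves little to read from these counts. Ctsd (1.46, SE 0.17), the protease cathepsin D, Cd9 (0.68), Car4 (0.76), a carbonic anhydrase also found on lung capillaries, and Plin2 (0.46), a lipid droplet coat protein, were among the rises. In polysomal RNA 1 of the 20 fell, the protease gene Ctsk at -1.39 (SE 0.29, limma adjusted p = 0.014), and 19 did not pass (median -0.15). There 6.77% of all genes fell and 8.36% rose. The fatty acid carrier Fabp4, whose group means ran from 13.2 to 14.1 log2, and Adgre1, which encodes the F4/80 antigen and ran from 9.07 to 10.2, were clearly measured and did not pass in either comparison (limma adjusted p from 0.41 to 0.99).

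Of 23 genes of macrophages in general 18 were tested. In total RNA Ctsz (0.95) and Lyz2 (0.79), which encodes lysozyme, rose and none fell, and in polysomal RNA Ptprc (0.84), the common leukocyte antigen CD45, rose while Cd14 (-0.82) and Fcgr2b (-0.37) fell. The medians were 0.07 and 0.00. Of all genes 17.2% rose and 5.97% fell in total RNA, and 8.36% rose and 6.77% fell on polysomes. Beside these shares the counts leave little to read, for this list and the next. In the axis of growth factors and transcription factors that makes an alveolar macrophage, 18 of 25 genes were tested. Irf8 (0.89), Bach1 (1.37) and Tgfb1 (1.08, from a WT mean of 4.80 log2, under the filter level) rose in total RNA. In polysomal RNA Cebpb (-0.68) fell and Jak2 (1.48) rose. The polysomal means of Jak2, 2.70 in WT and 4.18 in knockout, lay under the filter level and are not shown to be above background. The GM-CSF receptor genes Csf2ra, Csf2rb and Csf2rb2, Spi1, which encodes PU.1, and Pparg did not pass in either comparison. Csf2rb had group means from 3.00 (WT total) to 5.04 (knockout polysomal), mostly under the filter level, and is not shown to be unchanged.

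The scavenger and lectin receptors had 10 of 17 tested. The shares of all genes were 17.2% higher and 5.97% lower in total RNA, and 8.36% and 6.77% on polysomes. In total RNA Lrp1 (1.03) and Stab1 (0.62) rose and Clec10a (-0.74) fell, and in polysomal RNA Clec10a fell by 1.30 (SE 0.14, limma adjusted p = 9.1e-04) and 9 did not pass. Clec10a, a galactose-binding lectin of macrophages and dendritic cells, fell in both kinds of RNA, as did Ear1, Chil3 and 0.878% of all genes. Of 12 tested genes of interstitial macrophages 7 rose in total RNA and none fell (median 0.55), beside the 17.2% of all genes that rose. Among the 7 were C1qa (4.01, from a WT mean of 3.78 log2, under the filter level), H2-Ab1 (0.93), Tmem119 (1.39) and Cd74 (0.73). The list was not uniform, with Lyve1 at -0.64, Cd163 at -0.55 and Pf4 at -0.06, none of which passed. On polysomes 1 of the 12 fell, H2-Ab1 at -0.55, and none rose (median -0.24).

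**Figure D4:**
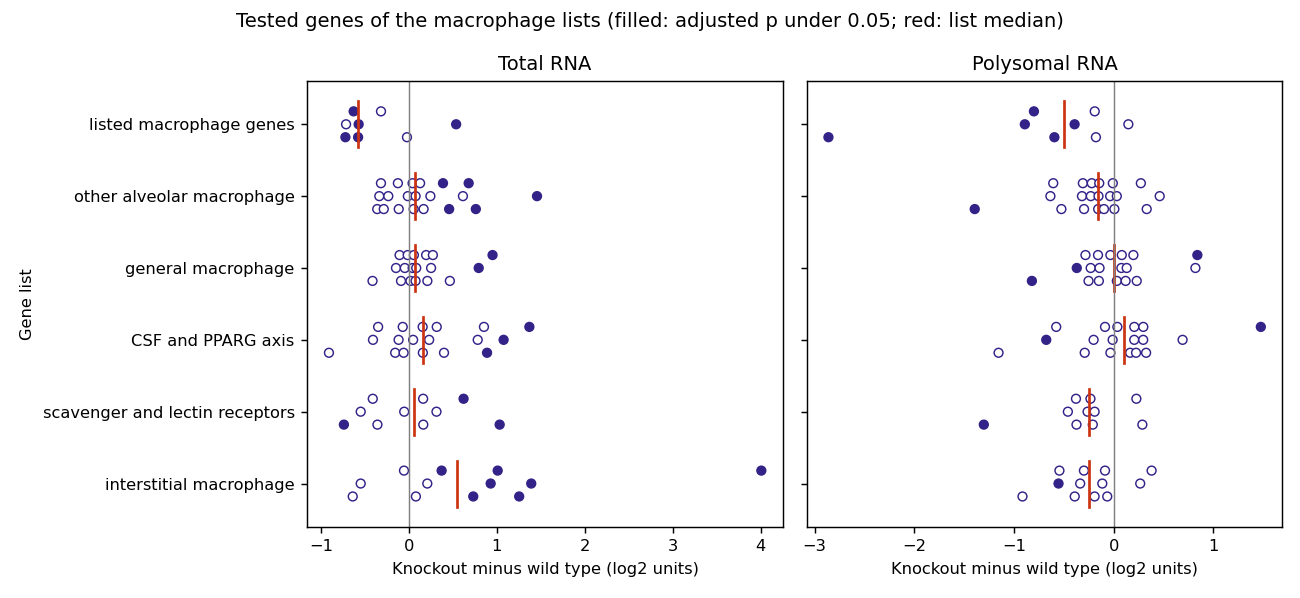
Knockout minus wild-type difference in log2 units (horizontal axes) of every tested gene of 6 gene lists (rows) in total and polysomal RNA; filled points had an adjusted p under 0.05 and red lines are list medians. The listed macrophage genes have medians of -0.57 and -0.49 (-0.39 on polysomes without Cd163l1), while the other alveolar macrophage genes have medians of 0.07 and -0.15. The lists were chosen with earlier results of these data known, so the medians are a description.

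Markers of other cells that share these genes were read beside them. Of 9 eosinophil genes with a probe set, 8 were under 5 log2 on every array of every group. Epx, the eosinophil peroxidase, stood at 1.87 to 2.0 and Prg2, the major basic protein, at 2.23 to 2.41. Averaged over the 9, an array of WT total RNA gave 2.69 to 2.78 and one of knockout total RNA 2.62 to 2.65. The part of eosinophils in the Siglecf, Ear1 and Ear2 differences was not tested. Of 12 dendritic cell genes 5 were tested and none passed in either comparison, with Flt3 at 3.29 to 3.39 and Xcr1 at 1.73 to 1.81. The average of the 12 ran from 4.39 to 4.61 in WT total and 4.46 to 4.49 in knockout total RNA.

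Lymphatic endothelial genes, which bear on Mrc1, had 3 of 7 with a probe set tested and none that passed, with Prox1 at 2.28 to 2.49. Of 11 genes of γδ T cells with a probe set, which bear on Cd163l1, 6 were tested. Il7r was lower in knockout total RNA (-0.50, SE 0.11, limma adjusted p = 0.0099). Sox13 fell on polysomes (-0.38, SE 0.10, limma adjusted p = 0.035), while Il17a, at 2.17 to 2.46, was near the floor. Among all genes 5.97% fell in total RNA and 6.77% on polysomes. The average of the 11 was 4.19 to 4.41 on the WT polysomal arrays and 4.32 to 4.63 on the knockout polysomal arrays. The part of γδ T cells in the Cd163l1 values was not tested.

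Genes of other leukocytes were read beside the shares of all genes that rose, 17.2% in total RNA and 8.36% on polysomes. None of 8 tested monocyte genes passed in total RNA. On polysomes Plac8 (0.89) and Ccr2 (1.09, from a WT mean of 4.91 log2, under the filter level) rose. Of 6 tested neutrophil genes Lcn2 (1.40) and Ltf (1.59) rose in total RNA and Lcn2 (0.56) on polysomes. The other 4 did not pass in total RNA, all with negative differences, and the median of the 6 was -0.07. On the same list Mpo, Elane, Ngp and Camp lay between 1.80 and 2.19 log2 on every array and were not tested. The part of neutrophils in the Lcn2 and Ltf rises was not tested. The 8 lung genes used to check the tissue, among them Sftpc at 13.9 to 16.2 log2 and the club cell gene Scgb1a1 at 16.3 to 16.5, were all tested. In total RNA 3 rose, Cldn5, Ager and Pecam1, the last from a WT mean of 4.34 log2, under the filter level. On polysomes 1 fell (Foxj1), beside 6.77% of all genes. The part of these shifts in the members' differences was not tested.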

How the data were processed

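Lung RNA of wild-type and double-knockout mice was hybridised to 11 one-colour Affymetrix arrays. The values are log2 expression values deposited by the authors, made with GCRMA per the submitters' processing notes (its version: not given in the sources used here). Labelling started from 100 ng of RNA, per the labels' protocols. Probe sets are named by RefSeq accessions, and of 26180 probe sets 15228 were matched to 1 gene through a RefSeq table and 10952 to none. Where a gene had several probe sets, the one with the highest mean stood for it. Of all probe sets 10682 held the same values as another one, but none of the members' did. A further 1844 counts of probe sets held an equal value on a total and a polysomal array, for a cause not known. Mrc1 read 12.1637 on WT total replicate 2, WT polysomal replicate 2 and knockout polysomal replicate 1. Arrays have no read depth, and their small number bounds the precision.

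A model with 1 mean per group was fitted to all 11 arrays with limma 3.58.1 (lmFit and eBayes, R 4.3.3; 7 residual degrees of freedom), two-sided, over the 13802 probe sets that reached 5 on at least 2 arrays. Folds are powers of 2 of log2 differences, computed from the deposited log2 values. The fit was tested on simulated data. Promoter windows were searched with Python 3.11.15 and aligned with Biopython 1.88. Members and gene lists were chosen with earlier results of these data known. All 10 members are reported. Other lists name up to 4 genes per comparison, those passing with the smallest p, and further genes are named as values chosen after the data were seen: Fabp4, Adgre1, the GM-CSF receptor genes, Spi1, Pparg, Lyve1, Cd163, Pf4, Epx, Prg2, Flt3, Xcr1, Prox1, Il17a, Mpo, Elane, Ngp, Camp, Sftpc and Scgb1a1. Deviations from group means correlated at -0.07 to 0.09 between same-letter arrays of the 2 genotypes and at -0.09 to 0.06 between different-letter arrays. With so few arrays, and only 2 in the WT polysomal group, these values cannot show whether the letters pair the arrays. Alternatives were other filters, scalings, a variance trend, the mean of a gene's probe sets, a fit of the compared groups alone, the set letter as a block, and leaving out each array.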

Additional observations from a re-analysis of the deposited data

Results flagged for a closer look

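By the limma interaction test 3 of the macrophage genes, Cd163l1 included, passed for a knockout minus WT difference that itself differed between polysomal and total RNA. Without Cd163l1 these were 2 of 7 members, beside 22.3% of all genes (14.2% lower and 8.06% higher), so the count leaves little to read. Itgax gave -1.13, with a difference of 0.54 in total RNA and -0.59 in polysomal RNA. Cd163l1 gave -2.15, from -0.71 and -2.86, but it passed the filter on low values only through WT arrays, which favours such a difference, and its call was lost with any of 8 arrays left out. Csf1r gave -0.37, from -0.02 and -0.39, and its call was lost with any of 10 arrays left out. No group had enough arrays for a screen for single arrays that stand apart.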

How the results depend on the processing

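Cd163l1 included, the members called numbered 5 in total RNA (3 to 5 with 1 array left out), 5 in polysomal RNA (2 to 5), 3 for the interaction (1 to 2), and 6 in each polysomal minus total comparison (6 to 6 in WT, 5 to 6 in knockout). In polysomal RNA 3 were called with the compared groups fitted alone. With the set letter as a replicate block 4 members were called in total RNA, 1 in polysomal RNA and 2 for the interaction. The block ended the calls of Chil3 in total RNA (-0.62, limma adjusted p = 0.0504) and of Chil3 (0.0502), Ear1 (0.0509), Itgax (0.053) and Csf1r (0.067) in polysomal RNA (limma adjusted p), all still below 0, and of Csf1r for the interaction (limma adjusted p = 0.12). The block was not run for polysomal minus total, where it would depend on the reference letter. Of all genes, 1876 were called in total RNA, 4216 without a filter and 964 to 2160 with 1 array left out. In polysomal RNA 1223 were called, 776 with the replicate block, 684 with the groups alone and 600 to 1649 with 1 array left out. For the interaction 1803 were called, 1178 with the replicate block and 1052 to 2088 with 1 array left out, and in WT polysomal minus total 5853, or 10360 without a filter. Quantile normalization turned the sign of the Ear1 interaction (0.015), of Ear2 (-0.36) and Mrc1 (-0.20) in WT polysomal minus total, and of Csf1r (-0.032) in knockout polysomal minus total. The Ear1 interaction ran from -0.24 to 0.088 with 1 array left out, and was 0.07 without knockout total replicate 3, 0.04 without WT total replicate 3, 0.088 without WT polysomal replicate 1 and 0.0081 without knockout polysomal replicate 3. Mrc1 in polysomal RNA ran from -0.027 (without WT polysomal replicate 2) to 0.32 with 1 array left out, and Cd163l1 in knockout polysomal minus total ran from -0.31 to 0.098 (without knockout polysomal replicate 3). The cause was not tested.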

Other observations

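Chil3, taken because its probe set had the highest mean signal (a choice of one gene, not a comparison of message levels), served as the example, and the genes whose deviations from the group means ran most like its own over the 11 arrays were sought among 8077 other tested genes. They were Mars1, a tRNA synthetase (Pearson r 0.97, Spearman rho 0.96, and r 0.95 without the 2 arrays farthest from the median of Chil3), Ptgr1 (r 0.97, rho 0.91, then 0.94), Slc37a3 (r 0.96, rho 0.85, then 0.94), Scd2, a fatty acid desaturase (r 0.95, rho 0.92, then 0.91), and Naa15 (r 0.95, rho 0.63, then 0.89). These are the highest of many values over few arrays and are given as a description. Among the 8 tested members themselves, 21 of 28 pairs had deviations that correlated above 0, with a median r of 0.21. The pairs ran from -0.51 (Siglecf and Ear2) to 0.67 (Itgax and Cd163l1). The share over pairs of all tested genes was not computed, so the count does not show that the members vary together.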
